A study of Mus musculus with 35 samples.

Results

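The comparison described here is between 3 stable clones of mouse embryonic fibroblasts (MEFs) that carry the NELFB mutant MT194 and 3 stable clones that carry wild-type NELFB and are labelled WT(N48). The 6 libraries were taken by their labels out of 35 in the series, of which 15 were stable clones and 20 were cell populations, and the comparison covered every gene that passed a filter on low counts. The study used NELFB mutants with defective contacts to other NELF subunits to separate the roles of the complex in pausing, gene expression and cell growth. Poly(A) RNA was sequenced as 50-base single reads. All clones came from immortalized MEFs with 1 null and 1 floxed allele of Nelfb, were infected with an adenovirus expressing Cre (Ad-Cre) to delete the floxed allele, and were then isolated as single-cell clones. Consequently, the endogenous gene was deleted in both groups and the ectopic protein was the intended source of NELFB.

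The MT194 clones received their construct through the pLenti vector and the WT(N48) clones through pBabe. Vector and construct therefore cannot be told apart in any difference between these 6 clones. A further group of 3 clones labelled WT was made with pLenti, as were 3 MT486 clones, whereas 3 Δ-C60 clones were made with pBabe. MT486 carries an alanine substitution and Δ-C60 lacks the C-terminal part of NELFB. The populations all carried pLenti constructs and were collected 7 days after Ad-Cre. Each clone descends from 1 cell, so the spread between the 3 clones of a group includes differences that were present between the founding cells. The labels do not say what N48 stands for.

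NELF is a complex of NELFA, NELFB, NELFC or NELFD and NELFE that, together with DSIF, holds RNA polymerase II in a paused state shortly after it has started transcription. The kinase P-TEFb releases the polymerase into elongation. NELFB is the subunit that bridges NELFA and NELFC with NELFE, and fibroblasts that lose it proliferate poorly. MT194 is a substitution of 3 adjacent residues by alanines, which by its mutagenic primer are valine, lysine and arginine, although a plasmid description of a fusion of this mutant names other residues. In the study it lost binding to NELFA and NELFC and kept binding to NELFE.

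The base changes that make the mutant are given because they define the group. The stretch of the Nelfb transcript (GENCODE M21, GRCm38, chr2:25209991-25210037, minus strand, exon 4) was aligned with the forward mutagenic primer listed for MT194. Capitals mark the 9 bases of the 3 codons that the primer replaces, at positions 25210010 to 25210018, which are codons 196 to 198 of this annotated coding sequence.
Nelfb: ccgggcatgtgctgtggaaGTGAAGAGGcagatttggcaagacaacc
MT194: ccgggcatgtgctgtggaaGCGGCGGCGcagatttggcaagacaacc
The sequences are 47 bases long and differ at 5 bases, all within the capitals. The number in the name of the mutant differs from these codon numbers, and the reason is not given in the sources used here.

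Depth was similar in the 6 libraries. Between 19313672 and 27816723 reads were assigned to genes, 15118 to 15690 genes had at least 1 read, and 9.48% to 11.3% of the reads fell on no gene. Expression is given below as CPM, read counts scaled to a common library size with the TMM method, for MT194 clones 1, 2 and 3 and then for WT(N48) clones 1, 2 and 3. Across genes, Pearson's r of log2 CPM was 0.949 to 0.983 within MT194, 0.943 to 0.984 within WT(N48) and 0.907 to 0.943 between the groups, where genes are not independent replicates. MT486 clones 1 and 2, which enter the fit of all 15 clones but not the comparison, stood apart with an r of 0.997. Their counts had a median chi-square of 1.10 per gene, above the 0.455 of sampling noise but below the 4.73 or more of every other pair of clones of 1 group. They were kept as 2 clones, and whether they come from separate cells was not tested.

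The label of fibroblast was checked against marker genes. Col1a1, the main chain of type I collagen, ranged from 2435 to 5619 CPM in the 6 clones, and Fn1, which encodes fibronectin, from 3389 to 12663 CPM. Both genes overlapped between the groups. Of 12 fibroblast markers, 10 passed the filter and none was called, and the surface marker Thy1 and the proteoglycan Lum were at or near 0 in every clone. The summed CPM of the list lay between 12492 and 26343. Epithelial markers summed to 3.38 to 29.98 CPM, with Krt19 the most abundant, and endothelial markers to at most 3.997 CPM. Leukocyte markers summed to 38.2, 121 and 18.6 CPM in MT194 and to 25.8, 39.2 and 94.9 CPM in WT(N48), nearly all of it from Cd14. The defining leukocyte, epithelial and endothelial genes Ptprc, Epcam and Pecam1 were at or near 0. Chondrocyte and osteoblast markers summed to 487, 291 and 732 CPM in MT194 and to 2043, 956 and 595 CPM in WT(N48). Col2a1, a cartilage collagen, gave most of the sum in the WT(N48) clones and MT194 clone 3, and overlapped between the groups (adjusted p = 0.32). In MT194 clones 1 and 2 Sox9 was larger, at 213 and 134 CPM beside 191 and 91.7 CPM for Col2a1. Sox9 went the other way, higher in every MT194 clone than in every WT(N48) clone. It was not called (log2 fold change 0.81, adjusted p = 0.16). Neural markers, mostly Nes, summed to 196 to 356 CPM, adipocyte markers to 24.6 to 89.4 CPM and skeletal muscle markers to at most 13.7 CPM. None of the markers of other cell types was called, and their part in the results was not tested. In RNA from a whole culture, fewer cells of a type and less RNA per cell cannot be told apart.

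Nelfb itself was read in all 6 clones at 189, 216 and 147 CPM in MT194 and at 241, 127 and 56.3 CPM in WT(N48). The groups overlapped, with the lowest value in WT(N48) clone 3. These values are a description, since the WT(N48) clones were taken as the reference in place of the clones labelled WT. Of those, WT clones 1 and 3 had only 200 and 306 Nelfb reads against 2637 in clone 2. The reads do not separate the ectopic transcript from what remains of the endogenous one. The partner genes did not pass the test: Nelfa had a log2 fold change of -0.09 (SE 0.20, adjusted p = 0.82), Nelfcd, which encodes NELFC and NELFD, of 0.39 (SE 0.22, adjusted p = 0.27) and Nelfe of 0.20 (SE 0.17, adjusted p = 0.50).

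Against this background, 14 of 20 cholesterol synthesis genes were called lower and 9 of 17 MHC class I and antigen processing genes were called higher in the MT194 clones than in the WT(N48) clones. Fewer of both were called in most fits that left out a clone, down to 7 and to 1. The largest single changes included the protease inhibitor gene Slpi and the receptor gene Ednra, which were higher, and Gpc3 and Npr3, which were lower. Of 24421 genes listed, 13223 were tested by edgeR's quasi-likelihood test on all 15 clones, and 429 were called at an adjusted p under 0.05 with an absolute log2 fold change over 1, which is 3.24% of genes tested. Of these, 226 (1.71%) were higher and 203 (1.54%) lower in MT194. With MT486 clone 2 left out of the fit the 429 became 242, of which 240 were among the 429.

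The fitted folds of the calls differed with direction. Of the 226 higher calls 53 had a WT(N48) mean under 0.5 CPM, and of the 203 lower calls 18 had an MT194 mean under 0.5 CPM, where fitted folds are poorly bounded. The median log2 fold change was 1.91 for the higher and -1.49 for the lower calls, and 105 were over 2 and 35 over 4, compared with 61 under -2 and 23 under -4. The balance differed among abundant genes. Among calls with at least 100 CPM in the higher group, 46 were higher and 73 lower in MT194. The median over all genes tested was 0.00061 on the log2 scale.

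**Figure D1:**
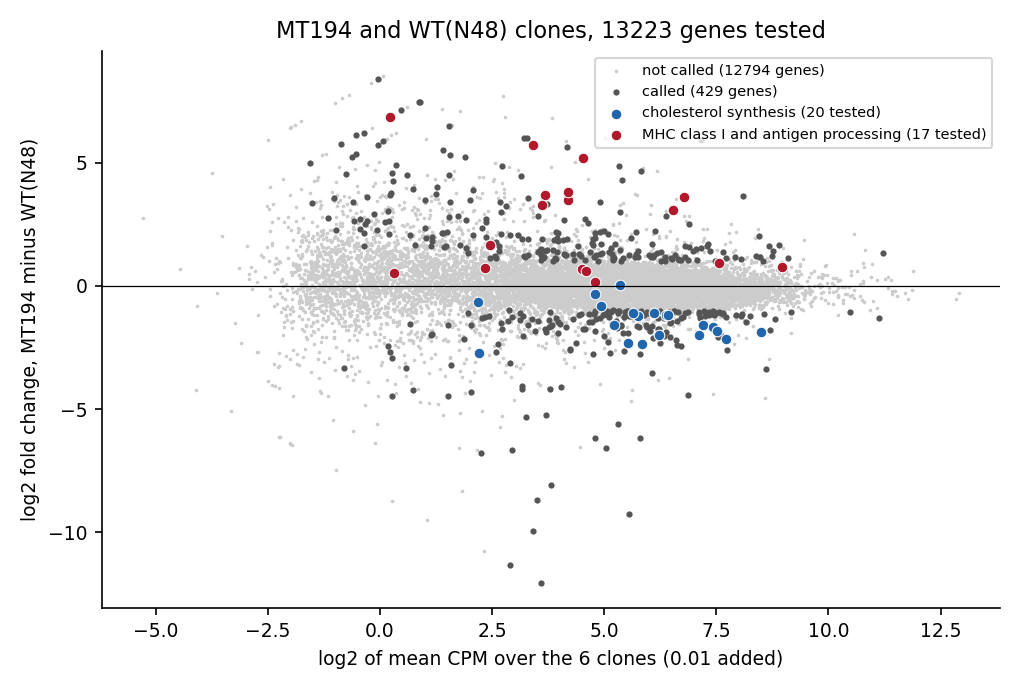
Log2 fold change (MT194 minus WT(N48) clones, vertical axis) against the log2 of mean CPM over the 6 clones with 0.01 added (horizontal axis), 1 point per gene tested. Dark points are the 429 called genes, and the 20 cholesterol synthesis genes (blue) lie below 0 except for 1 just above it, while the 17 MHC class I and antigen processing genes (red) all lie above 0.

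The calls depended on single clones. Leaving out MT194 clone 2 gave 405 calls, of which 246 were among the 429. Leaving out MT194 clone 1 gave 66, MT194 clone 3 gave 222, WT(N48) clone 1 gave 50 and WT(N48) clone 2 gave 100. Without WT(N48) clone 3 there were 902, which held 369 of the 429. The CPM of the groups did not overlap for 4231 genes, 32.0% of those tested, and for 422 of the 429 calls. Among the calls, 297 had an adjusted p over 0.02 and 55 had one under 0.01. Of the 80 called genes that the naming rule chose, 12 kept their call when each of the 6 clones was left out in turn. Among these were Idi1, Hsd17b7, Fdps, Hmgcs1, Lss, Insig1, Stard4 and Srebf2 of the 2 sterol lists, and Ednra, Tgfa and Atf4. The other 68 lost their call in at least 1 of these 6 fits, all with an unchanged direction.

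Enzymes of the mevalonate pathway were mostly lower in MT194. Cholesterol is made from acetyl-CoA through mevalonate, isoprenoids, squalene and lanosterol, and the genes of this route are transcribed together under SREBP2, which is released from the endoplasmic reticulum when sterol is low. All 20 genes of the cholesterol synthesis list were tested, 14 were called lower in MT194 and none higher, beside 1.54% called lower over all genes tested. The groups did not overlap for 17 of the 20, beside 32.0% of all genes tested. The median log2 fold change of the list was -1.59. Fewer were called without MT194 clone 1, at 7, or without WT(N48) clone 3, at 9, and 6 were called when the 6 compared clones were fitted alone.

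At the head of the pathway, Hmgcs1, which encodes HMG-CoA synthase, had 71.9, 78.0 and 82.9 CPM in MT194 and 300, 325 and 408 CPM in WT(N48) (log2 fold change -2.15, SE 0.21, adjusted p = 0.00054). Every MT194 clone was well below every WT(N48) clone. Further along, Sqle, squalene epoxidase, fell from 521, 591 and 575 CPM in WT(N48) to 201, 116 and 147 CPM in MT194 (log2 fold change -1.86, SE 0.21, adjusted p = 0.00121). Sqle lies outside the rule for named genes and was chosen after its values were seen.

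Along the middle of the route, Idi1, the isomerase that makes dimethylallyl diphosphate, had 1.13, 1.38 and 1.10 CPM in MT194 and 8.06, 8.34 and 7.78 CPM in WT(N48). Its log2 fold change of -2.74 was the furthest from 0 in the list. Fdps, farnesyl diphosphate synthase, had 15.1, 11.1 and 19.97 CPM against 63.0, 73.0 and 96.8 CPM, a log2 fold change of -2.33 (SE 0.28). From the late sterol steps, Hsd17b7, a sterol ketoreductase, had 16.6, 16.9 and 22.4 CPM against 95.3, 86.1 and 107 CPM, a log2 fold change of -2.37 (SE 0.28). The adjusted p was 0.0019 for each of these 3 genes, and the clones of a group lay close together.

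After squalene, Lss, lanosterol synthase, had 29.2, 30.5 and 30.6 CPM in MT194 and 80.8, 80.8 and 199 CPM in WT(N48), a log2 fold change of -1.998 (SE 0.31). Cyp51, the lanosterol demethylase, was at -1.66 (SE 0.35) and Msmo1, a sterol methyl oxidase, at -1.82 (SE 0.45). From the early steps, Mvk, mevalonate kinase, was at -1.21 (SE 0.26). The calls of Cyp51, Msmo1 and Mvk were lost when any of several single clones was left out, among them MT194 clones 1 and 2. The members that were not called were Mvd (-1.60, adjusted p = 0.054), Nsdhl (-1.11), Dhcr7 (-0.84), Tm7sf2 (-0.67), Pmvk (-0.34) and Ebp (0.04).

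**Figure D2:**
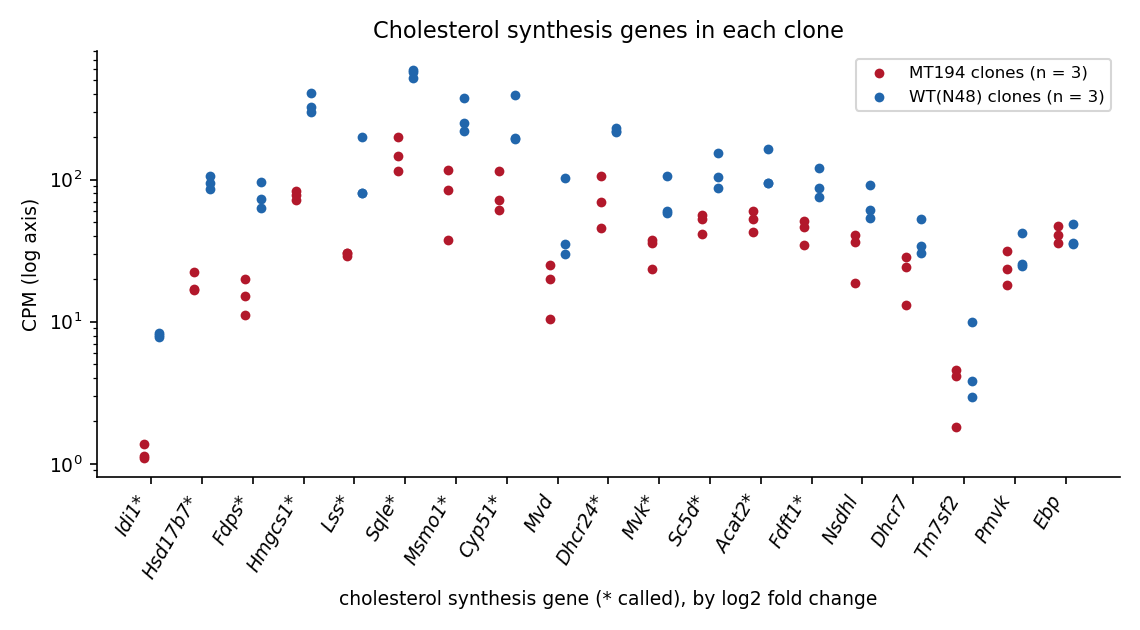
CPM on a log axis of 19 of the 20 cholesterol synthesis genes in each of the 3 MT194 clones (red) and 3 WT(N48) clones (blue), with genes ordered by log2 fold change and called genes marked by an asterisk. From Idi1 to Dhcr7 the MT194 points lie below the WT(N48) points, and only Tm7sf2, Pmvk and Ebp overlap.

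Regulators of the pathway were divided. In the list of sterol and fatty acid regulation 17 of 18 genes were tested, 6 were called lower and none higher, beside 1.54% called lower over all genes tested, and the median log2 fold change was -0.81. Srebf2, which encodes SREBP2, had 284, 198 and 282 CPM in MT194 and 719, 653 and 568 CPM in WT(N48) (log2 fold change -1.34, SE 0.19, adjusted p = 0.0053). Several known targets of SREBP2 were called as well. Insig1, the sterol-regulated anchor of the SREBP machinery, had 35.7, 12.7 and 27.7 CPM against 97.8, 112 and 168 CPM (log2 fold change -2.31, SE 0.31). Stard4, a cytosolic sterol carrier, had 41.4, 22.1 and 42.6 CPM against 111, 112 and 169 CPM (log2 fold change -1.88, SE 0.33). The other regulators did not pass the rule: Scap, the escort of the SREBPs, was at 0.24 (adjusted p = 0.51), and Insig2, a second anchor, at 0.82 (adjusted p = 0.025), under the fold threshold. Fatty acid genes differed as well. Fasn (-1.08) and Elovl6 (-1.22) were called, whereas Scd1 (-0.81, adjusted p = 0.064), Acly (-0.31) and Srebf1 (-0.38) were not. Abca1, the cholesterol exporter, had 369, 188 and 175 CPM in MT194 and 7.35, 28.3 and 112 CPM in WT(N48), without passing the test (log2 fold change 2.31, adjusted p = 0.068).

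The promoter of Hmgcs1 is shown because it held the searched sterol-element letters, the only match among the 15 and 11 windows found for the sterol lists of 20 and 18 genes. The window covers 250 bases before to 50 after the annotated start in RefSeq (GRCm38.p6, chr13:119690101-119690400, plus strand), and capitals mark TCACNCCAC, whose first base lies 137 bases before the start.
Hmgcs1: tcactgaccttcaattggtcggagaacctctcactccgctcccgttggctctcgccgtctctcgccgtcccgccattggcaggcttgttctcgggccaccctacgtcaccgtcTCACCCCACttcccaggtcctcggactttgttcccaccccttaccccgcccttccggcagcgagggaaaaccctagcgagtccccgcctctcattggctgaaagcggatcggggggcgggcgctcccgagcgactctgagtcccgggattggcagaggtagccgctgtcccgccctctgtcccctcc
TCACNCCAC, searched on both strands, was present in 408 of 32851 windows of this length, or 1.24%. It was found in 1 of the 15 cholesterol synthesis genes that had a window and in none of 11 genes of the regulatory list. These matches describe letters in a window and are not a test of binding.

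In all 15 clones, the level of the cholesterol list was compared as the median of its genes relative to the mean of the clones on the log2 scale. It was -0.68, -1.08 and -0.37 in the MT194 clones and 0.48, 0.45 and 1.17 in the WT(N48) clones. The other pLenti clones were also below 0, at -0.21, -0.58 and -0.27 for the clones labelled WT and -0.10, -0.05 and -0.38 for MT486. The Δ-C60 clones, made with pBabe like WT(N48), were at 0.84, 0.42 and 0.67. Hence all 9 pLenti clones, MT486 clones 1 and 2 counted separately, were below 0 and all 6 pBabe clones above it, and MT194 clones 1 and 2 were lower than every other clone. The MT194 and MT486 clones carry mutants, and WT clones 1 and 3 had only 200 and 306 Nelfb reads. WT clone 2, at -0.58, had 2637. The part of the vector in this split and that of the level or form of NELFB were not tested. MT486 against Δ-C60, which share no library with the 6 clones and differ in vector in the same way, had a median of -0.74 with 3 of 20 genes called lower. That comparison called 164 of 13223 genes, or 1.24%. Its calls rested on MT486 clone 2, without which 1 of 13485 genes and no cholesterol gene was called, while the list median was -0.73.

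The populations gave a separate measurement of the mutant against wild type, with the same vector on both sides. MT194-Cre and WT-Cre populations, 2 of each with 21151468 to 24873566 reads on genes, were compared by the same test across all 20 populations. In total 121 of 13805 genes were called (0.876%), 53 higher (0.384%) and 68 lower (0.493%) in MT194-Cre. For the cholesterol list, all 20 were below 0, 10 were called lower, and the median was -1.42. The 10 became 8 without MT194-Cre population 1, 2 without MT194-Cre population 2, 2 without WT-Cre population 1 and 5 without WT-Cre population 2. Relative to the mean of the populations, the list stood at -0.80 and -1.28 in MT194-Cre, 0.38 and 0.38 in WT-Cre and -1.74 and -2.02 in EV-Cre, which has an empty vector and no ectopic NELFB after Cre. The MT194-Cre populations thus lay between those with and without ectopic wild-type NELFB.

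The named genes were below 0 in the populations too, by amounts that differed from gene to gene. Fdps had 25.2 and 11.4 CPM in MT194-Cre and 75.5 and 69.9 CPM in WT-Cre (log2 fold change -1.99, adjusted p = 0.026), beside -2.33 in the clones. Insig1 was at -1.76 (adjusted p = 0.0048) beside -2.31, Lss at -1.64 (adjusted p = 0.0056) beside -1.998 and Hsd17b7 at -1.31 (adjusted p = 0.0017) beside -2.37. Idi1, at -1.76 beside -2.74, was not called in the populations (adjusted p = 0.34). Hmgcs1, with 155 and 77.0 CPM against 352 and 295 CPM, was at -1.48 beside -2.15 and not called either (adjusted p = 0.098). With the replicate number as a block, Idi1 (adjusted p = 0.014) and Hmgcs1 (adjusted p = 6.4e-05) were called, and 18 of the 20 cholesterol genes. The study describes the populations as independent experiments, but the labels do not tie replicate numbers to them. In a joint fit of all 35 libraries, the log2 fold change of the clones minus that of the populations was tested for 14230 genes and passed an adjusted p of 0.05 for 189, or 1.33%. No gene of either sterol list was among them. A difference that misses the threshold does not show that the changes were equal.

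In the MHC class I and antigen processing list, the calls were toward higher expression. MHC class I molecules display peptides that the immunoproteasome cuts and the TAP transporter carries into the endoplasmic reticulum, and the genes are switched on together by interferon and by the transactivator NLRC5. Of the 20 genes in the list 17 were tested, 9 were called higher in MT194 and none lower, beside 1.71% called higher over all genes tested. The groups did not overlap for 14 of the 17, beside 32.0% of all genes, and all 17 had a log2 fold change above 0. The median was 3.08. All called members except Nlrc5 lie on chromosome 17, so they are not spread over the genome. The count of calls rested on single clones more than that of the cholesterol genes. It was 4 without MT194 clone 1, 1 without WT(N48) clone 1 and 1 without WT(N48) clone 2, and 3 when the 6 clones were fitted alone.

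Psmb8, an immunoproteasome subunit, had 14.4, 37.9 and 10.4 CPM in MT194 and 0.101, 0.250 and 0.771 CPM in WT(N48) (log2 fold change 5.73, SE 0.94, adjusted p = 0.0091). Every WT(N48) clone was below 1 CPM. Psmb9, its partner subunit, had 143 reads in the MT194 clones and 1 in WT(N48), a ratio of 158.8 corrected for depth with a 95% exact counting interval of 28.0 to 6314. The interval covers counting error only. Tap1 had 19.3, 38.7 and 13.5 CPM against 0.862, 1.05 and 3.61 CPM (log2 fold change 3.67, SE 0.80), and Tap2 was at 3.47 (SE 0.62). Together these encode the peptide transporter. Nlrc5 itself had 41.5, 39.8 and 21.7 CPM against 0.964, 1.25 and 4.94 CPM (log2 fold change 3.82, SE 0.74, adjusted p = 0.017).

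Among the heavy chains, H2-K1 had 81.5, 446 and 84.7 CPM in MT194 and 7.00, 16.8 and 26.9 CPM in WT(N48) (log2 fold change 3.59, SE 0.87), and H2-D1 was at 3.08 (SE 0.59). H2-Q4 (5.18, SE 1.14) and H2-T23 (3.27, SE 0.74) are non-classical class I genes. MT194 clone 2 was the highest clone for each of these. Class I genes are near-identical in parts, and reads that map to several copies were dropped by the mapping filter, so how the reads divide among H2 genes is uncertain. The light chain B2m had 615, 700 and 589 CPM against 397, 427 and 289 CPM and was not called (log2 fold change 0.77, adjusted p = 0.17). H2-K1, H2-D1, H2-T23, Tap1 and Tap2 were chosen after their values were seen.

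Of 43 interferon-stimulated genes 40 were tested, 37 were above 0 with a list median of 2.59, and 3 were called higher, beside 1.71% of all genes: Oas1b (3.01, SE 0.81), a relative of the antiviral oligoadenylate synthetases, Ifi35 (1.37, SE 0.32) and Trim25 (1.35, SE 0.33), a ubiquitin ligase of RIG-I signalling. Each of the 3 lost its call without MT194 clone 1. Isg15, a ubiquitin-like modifier, had 6.85, 25.7 and 11.2 CPM in MT194 and 0.456, 1.55 and 1.79 CPM in WT(N48), and its log2 fold change of 3.51 did not pass (adjusted p = 0.082). Summed over the list, expression was 586, 1079 and 481 CPM in MT194 and 313, 416 and 471 CPM in WT(N48). The lowest MT194 and the highest WT(N48) value were close to each other.

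**Figure D3:**
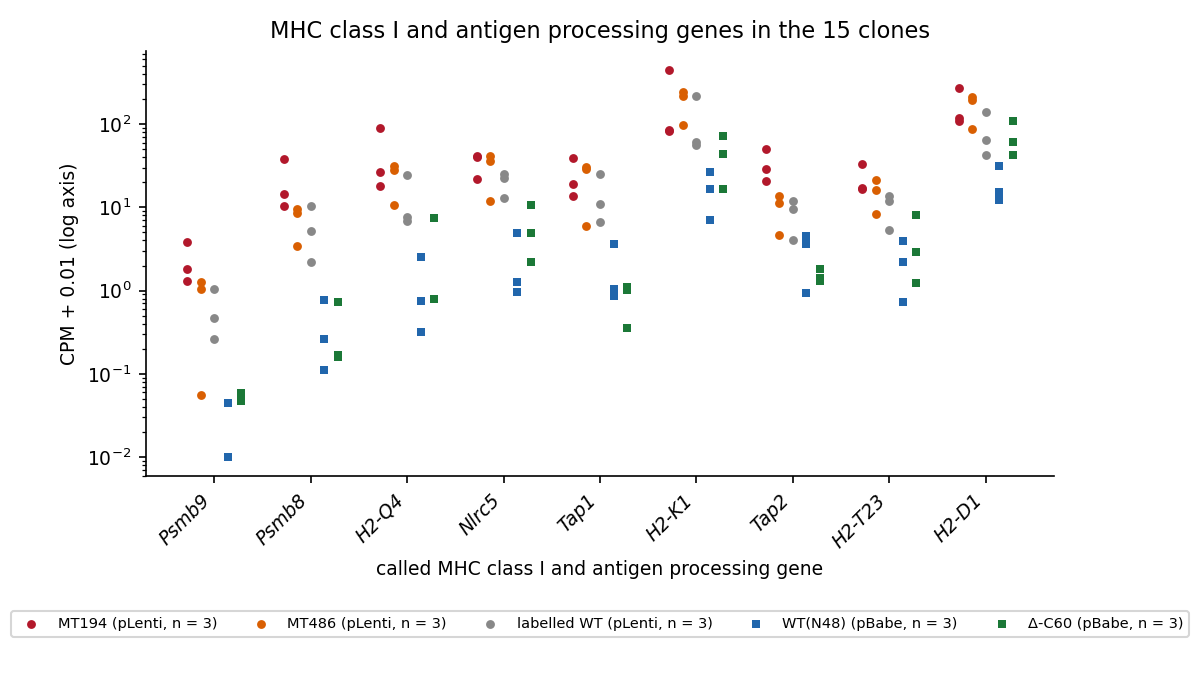
CPM with 0.01 added, on a log axis, of the 9 called MHC class I and antigen processing genes in the 15 clones, with circles for pLenti and squares for pBabe clones. All MT194 clones (red) lie above all WT(N48) clones (blue), and the MT486 and labelled WT clones mostly lie above the WT(N48) clones too.

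Across the 15 clones, the MHC list stood at 0.71, 1.76 and 0.48 in MT194, at -0.996, -0.74 and -0.71 in WT(N48), and at -0.43, -0.50 and -0.89 in Δ-C60. The MT486 clones were at 0.86, 1.03 and 0.18 and the clones labelled WT at 0.66, -0.05 and -0.12. The 6 pBabe clones were thus the 6 lowest of 15, where WT clones 1 and 3 again had few Nelfb reads. MT486 against Δ-C60 had a list median of 1.30 with 3 genes called higher, and without MT486 clone 2 a median of 1.13 with none called. In the populations, by contrast, none of the 17 genes was called, and the list median was 0.13. Psmb8 had 26.6 and 28.5 CPM in MT194-Cre and 39.2 and 30.3 CPM in WT-Cre. The clone change exceeded the population change for Psmb8, Psmb9, Nlrc5 and Tap2 in the joint fit, at adjusted p of 0.0044 for Psmb8, 0.0071 for Psmb9 and 0.036 for Nlrc5. For the interferon list the population median was -0.02 with none of 43 genes called.

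**Figure D4:**
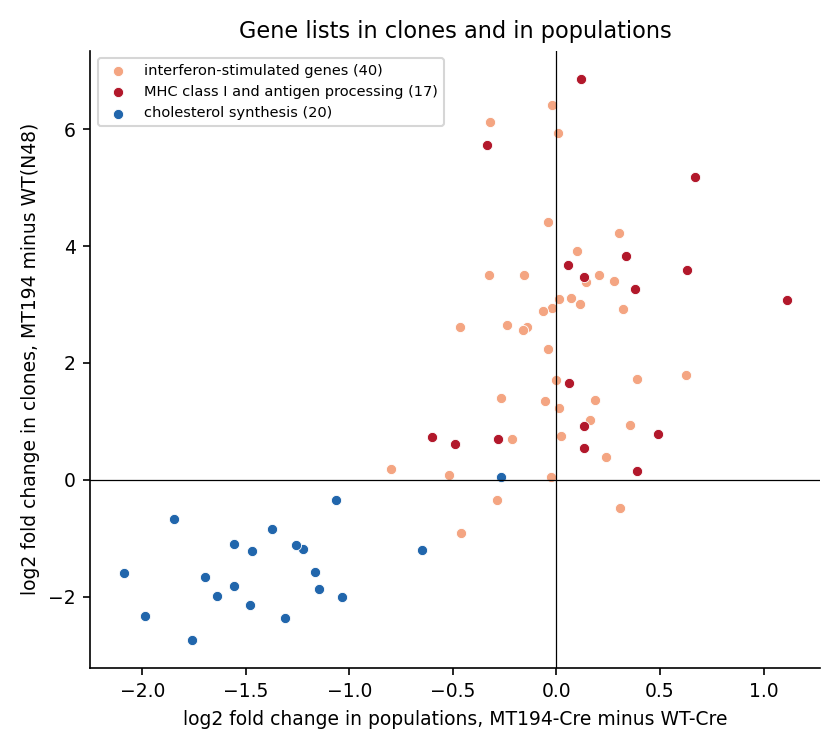
Log2 fold change in the clones (MT194 minus WT(N48), vertical axis) against that in the populations (MT194-Cre minus WT-Cre, horizontal axis), 1 point per gene tested in both. Cholesterol synthesis genes (blue) lie in the lower left, with Ebp alone above 0 in the clones. MHC (red) and interferon (orange) genes mostly lie above 0 in the clones and on both sides of 0 in the populations. The interferon genes Ifit2, Irgm1 and Ifi47 lie below 0 in the clones.

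Promoter windows of called members are given for the letters that interferon-responsive factors are known to bind. H2-T23 (chr17:36032652-36032951, minus strand) holds GAAANNGAA, read here on the opposite strand, from 123 bases before its start. Psmb8 (chr17:34197945-34198244, plus strand) holds TTCNNNGAA from 97 bases before its start. Capitals mark these letters in the RefSeq windows (GRCm38.p6).
H2-T23: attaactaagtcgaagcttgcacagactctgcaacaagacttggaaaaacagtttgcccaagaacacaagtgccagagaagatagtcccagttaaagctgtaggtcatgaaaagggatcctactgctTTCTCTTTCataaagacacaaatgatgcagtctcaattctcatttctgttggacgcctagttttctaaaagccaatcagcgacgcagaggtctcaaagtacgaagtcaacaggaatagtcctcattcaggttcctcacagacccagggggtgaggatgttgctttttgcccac
Psmb8: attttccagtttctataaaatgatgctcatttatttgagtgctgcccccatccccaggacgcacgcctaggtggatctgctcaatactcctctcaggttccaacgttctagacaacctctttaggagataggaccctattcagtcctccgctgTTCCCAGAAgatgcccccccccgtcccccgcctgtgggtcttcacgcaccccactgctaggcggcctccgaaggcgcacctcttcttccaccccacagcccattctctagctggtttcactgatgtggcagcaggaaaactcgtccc
GAAANNGAA was found in 5 of 17 MHC windows and in 19 of 30 windows of interferon-stimulated genes, against 8.56% of all windows. TTCNNNGAA was found in 2 of 17 and in 8 of 30, against 8.3%. Of 9 called MHC genes 7 had a window, and among those H2-T23 and Psmb8 had a match.

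The largest changes toward higher expression involved genes of several functions. Slpi, a secreted inhibitor of leukocyte proteases, had 412, 185 and 240 CPM in MT194 and 0.507, 7.64 and 5.75 CPM in WT(N48) (log2 fold change 5.91, SE 1.30, adjusted p = 0.027). It was the most abundant of the 12 genes that led in this direction. Ednra, the endothelin A receptor, had 24.4, 21.6 and 11.3 CPM against 0.101, 0.550 and 0.245 CPM (log2 fold change 5.98, SE 0.84, adjusted p = 0.0052) and kept its call whichever clone was left out. Hpse, the heparanase that cuts heparan sulphate, had 48.5, 30.1 and 26.5 CPM against 0.254, 1.05 and 0.771 CPM (log2 fold change 5.65, SE 1.15). The clones labelled WT had 131, 66.8 and 45.5 CPM for Slpi, 28.0, 12.1 and 9.89 CPM for Ednra and 25.9, 3.57 and 21.7 CPM for Hpse. In the MT486 clones Slpi was at 22.3 to 71.7 CPM, Ednra at 0.197 to 1.105 CPM and Hpse at 3.78 to 34.1 CPM, and in Δ-C60 they reached at most 13.9, 0.075 and 3.61 CPM.

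Several of the others varied widely among the MT194 clones. Gria1, a glutamate receptor subunit, had 5.63, 1.71 and 47.0 CPM in MT194 and at most 0.450 CPM in WT(N48). Eef1a2, a tissue-restricted elongation factor, had 8.37, 0.427 and 2.10 CPM in MT194. Its 222 reads there against 1 in WT(N48) gave a depth-corrected ratio of 246.5 (95% counting interval 43.8 to 9779). Serpina7, a thyroxine carrier, had 1.86, 6.17 and 0.250 CPM in MT194, with 173 reads against 1, a ratio of 192.1 (34.0 to 7630). These intervals cover counting error only and leave out the spread between clones. Of 6 fits that each left out 1 clone, the call was lost in 5 for Eef1a2 and in 4 for Serpina7. Gc, the vitamin D binding protein, was at 6.49 (SE 1.25) with 0.551 CPM in MT194 clone 3 and 7.68 and 8.87 CPM in clones 1 and 2. Trem2, a lipid-sensing receptor known from macrophages and microglia, was at 5.52, and the leukocyte gene Ptprc was at or near 0. Eda (5.22), a TNF-family ligand, and the homeobox gene Esx1 (5.30) are both on the X chromosome.

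Genes that fell included several that were not detected in MT194. Gpc3, a cell-surface heparan sulphate proteoglycan on the X chromosome (GRCm38, chrX:52272426-52613950), had no read in any MT194 clone and 20.2, 8.84 and 15.4 CPM in WT(N48). It was at least 304.4-fold lower, with 3 reads over the group as the floor. It was also at 0 in the other 6 pLenti clones, those labelled WT and MT486, and at most at 0.749 CPM in the Δ-C60 clones. Gria3, another glutamate receptor subunit on the X chromosome, had no read in MT194 and 1432 in WT(N48), at least 429.9-fold lower, although WT(N48) clone 3 had only 0.841 CPM against 41.5 and 29.4 CPM in the other two. Tmem47 and Ctnnd2, a junction protein and δ2-catenin, had 1 and 3 reads in MT194 against 1302 and 1390 in WT(N48). Fhl1, a LIM-domain protein, showed the same split within WT(N48), with 180, 99.2 and 0.666 CPM against at most 0.190 CPM in MT194. WT(N48) clone 3 was thus close to the MT194 clones for Gria3 and Fhl1. In the labelled WT and MT486 clones Gria3 and Tmem47 were at most at 0.052 CPM.

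The same clone was the lowest of its group for most of the remaining genes that fell strongly. Wnt5a, a noncanonical Wnt ligand, had 0.0489, 0.142 and 2.10 CPM in MT194 and 72.5, 78.3 and 13.3 CPM in WT(N48) (log2 fold change -6.16, SE 1.30, adjusted p = 0.024). Sox11, a transcription factor of neural and mesenchymal progenitors, was at -8.09 (SE 1.87), Pcsk6, a proprotein convertase, at -5.60 (SE 1.34), and Lama2, the laminin α2 chain, at -5.34 (SE 0.93). Grin3a, an NMDA receptor subunit, was at -6.77 (SE 1.75). In contrast, Npr3, the natriuretic peptide clearance receptor, was high in all 3 WT(N48) clones at 106, 79.7 and 144 CPM against 0.636, 1.80 and 2.05 CPM (log2 fold change -6.20, SE 1.05, adjusted p = 0.011). Npr3 was at most at 1.92 CPM in the other 6 pLenti clones and at 23.4, 83.2 and 311 CPM in Δ-C60. Ndn, the imprinted gene of necdin, had 58.0, 75.1 and 63.5 CPM against 0.0489, 1.76 and 0.200 CPM (log2 fold change -6.59, SE 1.74).

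Called growth factor genes were found in both directions. Of 10 EGF-family genes tested 3 were called, beside 3.24% of all genes. The ligands Tgfa and Btc were called higher and the ligand Hbegf lower. Tgfa had 28.8, 11.5 and 14.1 CPM in MT194 and 0.558, 2.15 and 1.93 CPM in WT(N48) (log2 fold change 3.54, SE 0.51, adjusted p = 0.0053). Btc was at 3.73 (SE 0.63) and Hbegf at -2.05 (SE 0.54). In the list of FGF, PDGF and related factors, Hgf, the ligand of MET, had 216, 142 and 79.8 CPM against 5.12, 13.3 and 42.1 CPM (log2 fold change 2.85, SE 0.73), and Pdgfc was called lower at -1.67 (SE 0.35). The Hgf call was lost without any 1 of 5 clones. In the clones labelled WT, also made with pLenti, mean CPM was 18.5 for Tgfa and 4.08 for Btc, beside 18.1 and 4.40 in MT194. The WT(N48) means were 1.54 and 0.329 CPM. Hbegf (45.7), Hgf (81.1) and Pdgfc (68.9) lay between the MT194 and WT(N48) means. Etv4, a transcription factor downstream of ERK, was the only called gene of 17 ERK feedback and ETV genes, at -1.91 (SE 0.49), and none of 35 PI3K-AKT-mTOR and RAF-MEK-ERK kinases was called.

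Among Wnt genes 2 of 30 tested were called and in the TGF-β list 4 of 28, beside 3.24% of all genes. Sfrp1, a secreted Wnt antagonist, had 80.0, 112 and 134 CPM in MT194 and 3.20, 5.596 and 4.17 CPM in WT(N48) (log2 fold change 4.65, SE 0.99, adjusted p = 0.024). It was called higher and Wnt5a lower. In the TGF-β list, the type I receptor Tgfbr1 (1.37, SE 0.28), the latency protein Ltbp2 (1.65, SE 0.42) and the target Id3 (1.00, SE 0.27) were called higher and Smad2, a receptor-activated SMAD, lower (-1.01, SE 0.20). No YAP/TEAD target of 16 was called. Cyr61, the best known of them, had a log2 fold change of -1.10 (adjusted p = 0.11).

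Of 86 genes in 3 matrix lists, 5 were called, or 5.81%, beside 3.24% of all genes. Adamts2, a procollagen N-proteinase, had 65.2, 121 and 47.2 CPM in MT194 and 1.42, 6.35 and 0.385 CPM in WT(N48) (log2 fold change 4.86, SE 0.89, adjusted p = 0.014). Col8a1, a short-chain collagen, was the only called gene of 29 collagens tested, at -2.41 (SE 0.64). Of 38 other matrix genes, Lama2, the crosslinking enzyme Loxl2 (-4.46, SE 1.18) and the small proteoglycan Aspn (-4.19, SE 1.14) were called lower. Cnn1, calponin, was called lower in the smooth-muscle list (-4.09, SE 1.10), where 14 of 15 genes were below 0. In the populations Cnn1, Acta2 and Tagln of this list were called higher in MT194-Cre, at 1.21, 1.52 and 1.22. Acta2, smooth-muscle actin, had 6.70, 7.31 and 79.9 CPM in MT194 and 1435, 768 and 3.40 CPM in WT(N48), so that the groups overlapped. Itga6, the integrin α6 chain, was the only called gene of 25 cadherins and integrins, at -1.63 (SE 0.40). Adamts2 was likewise the only call among 19 metalloproteinases and their inhibitors.

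Of 24 immediate early genes tested 4 were called, beside 3.24% of all genes. The AP-1 subunits Junb (1.19, SE 0.22) and Jun (1.18, SE 0.30) were called higher, and the zinc-finger factors Klf6 (-1.48, SE 0.30) and Klf2 (-1.76, SE 0.42) lower. Junb had 464, 358 and 573 CPM in MT194 and 159, 242 and 209 CPM in WT(N48). Klf6 had 151, 156 and 144 CPM against 615, 423 and 223 CPM. Both pairs were separated without overlap.

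In the stress lists 4 of 19 ATF4 genes and 2 of 20 NRF2 genes were called, beside 3.24% of all genes. Atf4, the transcription factor of the integrated stress response, had 226, 234 and 239 CPM in MT194 and 595, 540 and 422 CPM in WT(N48) (log2 fold change -1.16, SE 0.17, adjusted p = 0.0061). Of its targets, the amino acid transporter Slc7a1 (-1.13) and the folate enzyme Mthfd2 (-1.12) were called lower, whereas Ddit4, an mTOR inhibitor, was called higher (1.43, SE 0.35). Cat, catalase, and Osgin1 were the called NRF2 genes, both higher, at 1.01 (SE 0.20) and 1.71 (SE 0.41). The small heat shock gene Cryab was called lower (-1.17, SE 0.20), the only one of 18 heat shock genes. Socs3, a feedback inhibitor of cytokine signalling, was called higher at 1.60 (SE 0.41) among 24 cytokine and acute-phase genes, and Ccl17 at 2.05 (SE 0.46) among 15 chemokines. In the clones labelled WT, mean CPM was 45.9 for Osgin1, 146 for Socs3 and 36.9 for Cryab, beside 46.6, 168 and 36.4 in MT194. Cat (119) and Mthfd2 (111) were instead nearer to the WT(N48) means of 118 and 86.6 CPM. Atf4, Slc7a1, Ddit4 and Ccl17 lay between the MT194 and WT(N48) means.

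In 5 lists of cell cycle, p53 and apoptosis genes, 4 of 128 genes were called, or 3.12%, close to the 3.24% of all genes. Of 30 mitosis genes, 25 were below 0 with a median of -0.36, and Ccnb1, cyclin B1, was the only one called, with 25.9, 28.1 and 31.6 CPM in MT194 and 73.6, 59.96 and 45.6 CPM in WT(N48) (log2 fold change -1.07, SE 0.20, adjusted p = 0.014). The p53 targets Mdm2 (-1.01, SE 0.24) and Ccng1 (-1.14, SE 0.28) were called lower among 24 genes, and the apoptosis inhibitor Bcl2 (-1.65, SE 0.41) among 13 of its family. No call was made among 40 DNA replication genes or 21 G1 cyclins and CDK inhibitors. Ccnd1, cyclin D1, had 325, 297 and 716 CPM against 997, 658 and 276 CPM, and the groups overlapped. Of 54 patterning transcription factors, Sox11 and the epithelial-mesenchymal repressor Zeb1 (-1.12, SE 0.21) were called lower, and Ndn was the only call among 25 imprinted genes. In the clones labelled WT, mean CPM was 36.9 for Mdm2, 15.1 for Bcl2 and 75.7 for Zeb1, beside 37.4, 20.2 and 70.2 in MT194. Ccnb1 (55.3) and Ccng1 (251) were instead nearer to the WT(N48) means of 59.7 and 242 CPM.

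No call was made in the lists of transcription machinery and energy metabolism. Beside 3.24% of all genes called, lists this short can hold none, and the absence of calls does not set them apart. None was made among 23 pausing factors, whose median was -0.02, 13 RNA polymerase II subunits, at -0.20, or 12 Integrator subunits, at 0.04. Polr2a, the largest polymerase subunit, had 128, 268 and 116 CPM in MT194 and 329, 339 and 276 CPM in WT(N48), a log2 fold change of -0.88 that did not pass (adjusted p = 0.14). Aff4 (-0.50), Polr2m (-0.20), Ints1 (-0.14) and Ints3 (-0.04) were not called either. For nuclear-encoded oxidative phosphorylation (70 genes), the citrate cycle (25), glycolysis (26) and cytosolic ribosomal proteins (76), the medians were 0.07, 0.04, 0.14 and -0.11. Highly expressed members such as Atp5b (-0.50), Mdh2 (0.05), Pkm (0.23) and Rpl8 (-0.43) were not called. Hox genes (15 tested), clustered histone genes (27), Notch and Hedgehog genes (15) and guidance genes (36) also had none.

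In all, 13 clone calls were also called in the same direction in the populations, 3.10% of the 419 that were tested there, beside 0.876% of all genes called there in either direction. Another 3 were called in the opposite direction. Of the 13, 11 were lower, among them the sterol genes Fdps, Insig1, Cyp51, Lss, Msmo1, Mvk and Hsd17b7, the endothelial lipase Lipg, the sulphate-activating enzyme Papss2 and the noncoding RNA gene Snhg8. Olr1, the receptor for oxidised LDL, and Zbtb32, a zinc-finger repressor, were higher. Lipg had 0.685, 0.190 and 0.851 CPM in the MT194 clones and 2.99, 4.90 and 8.30 CPM in WT(N48), and 2.91 and 1.06 CPM in MT194-Cre against 7.90 and 11.9 CPM in WT-Cre. Leaving out 1 population reduced the 13 to 1 (without MT194-Cre population 2), 2 (without WT-Cre population 1) or 5 (without WT-Cre population 2). It left 10 without MT194-Cre population 1.

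The direction of the calls was also compared in both separate sets of libraries. In the populations 271 of 419 calls, or 64.7%, had the same sign, beside 53.4% of all genes tested in both. This held for 156 of 217 higher and 115 of 202 lower calls. In MT486 against Δ-C60 clones 338 of the 429 had the same sign, or 78.8%, beside 61.5% of all genes, and 52 were called there in the same direction and 3 in the opposite one. Without MT486 clone 2 the same sign was found for 348, or 81.1%, and 1 was called there in the same direction. MT486 and Δ-C60 are different mutants and differ in vector as MT194 and WT(N48) do. Of the 189 genes that differed between clones and populations in the joint fit, 115 were clone calls. The clone comparison that made the calls is part of that test, so clone calls are favoured among these genes.

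Called genes were unevenly placed on the chromosomes. Of 12705 tested genes with 1 annotated position, 7.06% were called on chromosome 13, where 33 were lower and 2 higher, whereas the other chromosomes had 1.23% to 5.25%. On chromosome 8, 33 were higher and 3 lower, on chromosome 4, 30 and 4, and on chromosome 18, 2 and 15. The medians over all genes of these chromosomes had the same sign as most of their calls. On chromosome 13, 77.2% of genes tested were below 0 and the median log2 fold change was -0.50, on chromosome 18 it was -0.46, and on chromosomes 4 and 8 it was 0.39 and 0.35 with 79.9% and 79.7% of genes above 0. The medians in the populations stayed between -0.12 and 0.17. These 4 chromosomes were chosen after their values were seen and held 122 of 403 calls with a position, or 30.3%, and 18.05% of genes tested.

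The shifts were also read in single clones, over genes averaging 5 CPM or more and relative to the mean of the 15 clones. The chromosome 13 median was -0.46, -0.20 and -0.44 in MT194 and 0.34, 0.25 and -0.11 in WT(N48). On chromosome 4 it was -0.08, -0.02 and 0.32 against -0.34, -0.19 and -0.32, and on chromosome 18 -0.03, -0.3 and -0.27 against 0.29, 0.22 and 0.23. The groups did not overlap on these 3 chromosomes. They did not overlap on chromosomes 1, 3, 6 and 17 either, although the median log2 fold change of chromosome 17 was only -0.03. On chromosome 8 they did, at 0.11, -0.05 and 0.23 in MT194 and -0.28, -0.38 and 0.01 in WT(N48). Chromosome 19 was low in MT194 clone 2 alone, at -0.81 against -0.12 and 0.13 in the others. Measured from the median of their own chromosome, 309 of the 403 calls kept an absolute log2 fold change over 1, but only 10 of the 35 on chromosome 13. DNA was not analysed here, and the part of chromosome dosage in these calls was not tested. The 20 cholesterol genes lie on 14 chromosomes, and their median measured from the chromosome medians was -1.58. Of those named, Hmgcs1 and Idi1 lie on chromosome 13. The 17 genes of the MHC list lie on only 5 chromosomes, most of them on chromosome 17, and the corresponding median was 3.11. All called members except Nlrc5 lie on chromosome 17, and Psmb9, Psmb8 and H2-Q4 begin at positions 34181987, 34197721 and 35379617. Subtracting the median of a whole chromosome does not remove a shift of part of it, and the share of linkage was not tested.

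**Figure D5:**
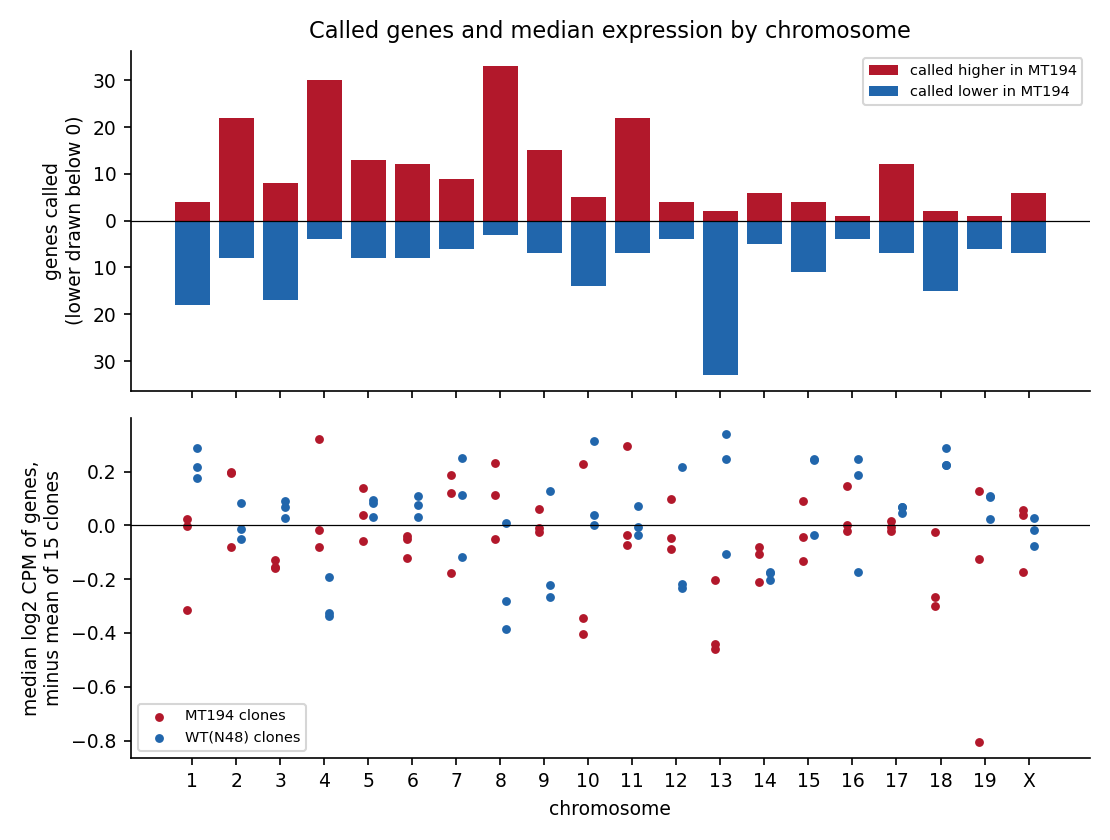
Upper panel, number of called genes per chromosome, with genes higher in MT194 drawn above 0 and genes lower drawn below it. Lower panel, median log2 CPM of the genes of each chromosome in each of the 3 MT194 (red) and 3 WT(N48) (blue) clones, relative to the mean of the 15 clones, where chromosome 13 is low in MT194 and chromosome 19 is lowest in 1 MT194 clone.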

How the data were processed

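The deposited files hold raw read counts per gene that the authors made by aligning reads to mm10 with Bowtie2, sorting with SAMtools, skipping alignments of mapping quality under 30 and counting with HTSeq. The libraries were stranded. Rows that name no gene were left out of library sizes. Counts were analysed in R 4.3.3 with edgeR 4.0.16 (filterByExpr, TMM, robust glmQLFit and glmQLFTest, Benjamini-Hochberg adjustment over all genes tested). All 15 clones, or all 20 populations, shared 1 fit with 1 mean per group. Standard errors are the absolute log2 fold change divided by the square root of F. Genes were called at adjusted p under 0.05 and absolute log2 fold change over 1. DESeq2 1.42.0 was an alternative. P-values set a difference against the spread within groups, which was estimated over all 15 clones or all 20 populations and not from the compared groups alone. The labels do not state that the populations are independent.

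The comparison and the gene lists were chosen with earlier results of these data known. Genes were named by rule: the NELF genes, the 12 largest calls in each direction that averaged 50 counts or more in the higher group and did not overlap, up to 4 called members per list, or 2 abundant members where none was called, and up to 12 calls shared with the populations. Of 128 named genes 127 had 1 position in GENCODE M21, and 299 called genes had a RefSeq promoter window. The tests were tried on simulated data. Some genes are not reported here by name, although they stayed in every fit and count.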

Additional observations from a re-analysis of the deposited data

Results flagged for a closer look

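The log2 fold change of MT194 against wild type differed between the clones and the populations for 28 of the 128 named genes. The test was of the difference itself in the joint fit (edgeR, adjusted p under 0.05). Over all genes tested, 1.33% passed it. Of the named genes 80 were called in the clones, and naming genes by their clone calls favours such a difference. The values that follow are the log2 fold change in the clones minus that in the populations. Fitted values of Gria3, Gpc3, Ctnnd2, Serpina7 and Psmb9, which had 3 or fewer reads in one group of clones, depend on the prior count and give a direction only. The comparison of clones differs in vector and that of populations does not, so vector, clone and time since Cre cannot be told apart in these differences.

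The difference was positive for Psmb9 (6.71), Gc (6.24), Serpina7 (6.22), Psmb8 (6.02), Trem2 (5.93), Hpse (5.43), Ednra (5.32), Tgfa (4.18), Adamts2 (4.17), Nlrc5 (3.46), Btc (3.45), Ddit4 (2.07) and Junb (1.31). It was negative for Gria3 (-12.17), Fhl1 (-11.35), Gpc3 (-10.87), Sox11 (-8.56), Ctnnd2 (-8.20), Ndn (-7.26), Wnt5a (-6.41), Npr3 (-6.28), Lama2 (-5.67), Cnn1 (-5.29), Hbegf (-3.76), Etv4 (-2.63), Pdgfc (-1.86), Klf6 (-1.81) and Zeb1 (-1.09). Fhl1 was called lower in the MT194 clones and higher in the MT194-Cre populations, with 92.0 and 101 CPM against 23.3 and 21.99 CPM in WT-Cre. Cnn1, at -4.09 in the clones and 1.21 in the populations, was also called in opposite directions. Ndn, with 41.3 and 48.9 CPM in MT194-Cre and 28.7 and 27.9 CPM in WT-Cre, was opposite in sign too, but its population change of 0.67 was too small for a call.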

How the results depend on the processing

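The number of genes called between MT194 and WT(N48) clones depended on the fit. The 429 calls became 878 with DESeq2 on the 15 clones, 939 with DESeq2 on the 6 clones, 125 with edgeR on the 6 clones, 196 without the clones labelled WT, 770 at a fold threshold of 0.5 and 775 with none, and 50 to 902 with 1 clone left out. DESeq2's size factors gave 422 and no filter on low counts 306. List members called numbered 71, and 135, 151, 26 and 46 under the first 4 of these alternatives, with 19 to 103 when 1 clone was left out. Leaving out MT486 clone 2, a choice made after seeing the data because its counts lay close to those of clone 1, gave 242 calls and 48 list members, and took the 164 calls of MT486 against Δ-C60 to 1.

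With a replicate block 254 genes and 50 list members were called, and 5 in place of 9 MHC genes. Replicate numbers did not pair the clones, whose same-numbered deviations correlated at -0.0071, 0.031 and -0.16. In the populations the correlation was 0.58 over 2 pairs, and the labels do not tie the numbers to the independent experiments that the study describes. There the 121 calls became 449 with a replicate block, 242 with DESeq2 and 17 to 69 with 1 population left out. The 13 calls shared with the clones became 33, 24 and 1 to 10. Under the replicate block 18 in place of 10 cholesterol genes were called lower in the populations, against 2 to 8 with 1 population left out, and Hmgcs1, Idi1, Stard4, Hbegf, Cyr61, Sfrp1 and Unc5b were gained among named genes. The causes of these changes were not tested. None of the 80 called named genes changed sign under any alternative, whereas 17 of 47 that were not called did so in at least 1 and stayed uncalled. Nelfb, the other of the 48 not called, is given as levels and was not recomputed. Of the values of named genes under the alternatives, 1325 kept their side of the threshold, 440 lost it and 5 gained it.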

Other observations

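Some genes with very low p, ranked beside the sterol genes, belonged to none of the lists. Gja4, a gap junction protein, was called higher in MT194 at a log2 fold change of 4.86, Tinagl1, a matrix glycoprotein, at 2.52 and Plat, tissue plasminogen activator, at 2.00. These genes were chosen after their values were seen.

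Xist, the noncoding RNA that silences 1 X chromosome, had 5606 to 48281 reads in the 15 clones, and each of 4 Y-linked genes had at most 4. On the X chromosome 412 genes were tested and 13 called (3.16%, beside 3.24% of all genes), 6 higher and 7 lower in MT194. Among these, Gria3, Gpc3, Tmem47 and Fhl1 had at most 0.190 CPM in any MT194 clone.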
